A study of Mus musculus with 16 samples.

Results

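Csf1r encodes the receptor for colony stimulating factor 1, and Csf1 and Il34 encode the ligands that share it. These 3 genes were taken by symbol from the 24060 genes listed for each library. All 3 had a mean of at least 1 RPKM (reads per kilobase of gene length and per 1000000 reads) over the 16 libraries, as did 12015 genes in all, and those genes were tested.

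CSF1R is a receptor tyrosine kinase found on macrophages, including microglia, the macrophages that live in brain tissue. Its signal keeps microglia alive and lets them divide. CSF1 in the brain comes mainly from glial cells and IL-34 mainly from neurons. TREM2, a lipid-sensing receptor of microglia, signals through the adapter TYROBP, which also takes part in CSF1R signalling in macrophages.

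The study asked how losing 1 or both copies of Trem2 alters the cortex of mice that carry tau with the P301S mutation, a form of human tau that aggregates in neurons. Cortical RNA from 16 mice aged 8 to 9 months was sequenced from transcript 3′ ends, with 4 mice per genotype, 2 of each sex, all on a strain labelled C57BL/6; C3. The groups were P301S+ TREM2-/- (tau transgene, no Trem2 allele), P301S+ TREM2+/- (tau transgene, 1 allele), P301S+ TREM2+/+ (tau transgene, both alleles) and TREM2+/+ (no transgene, both alleles, called controls). The labels do not name the promoter of the transgene or the part of Trem2 that was removed, and no batch is given.

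Libraries held from 2.55 to 14.47 M reads assigned to genes (M, 1000000 reads). Trem2 averaged 2.09 ± 1.11 RPKM in P301S+ TREM2-/- mice, 12.9 ± 8.98 in P301S+ TREM2+/- mice, 27.0 ± 8.69 in P301S+ TREM2+/+ mice, and controls had 12.4 ± 5.53 RPKM (mean ± SD of 4 mice throughout). All 12 excitatory neuron markers and all 20 microglial markers examined passed the filter. Of 102 tested genes in 13 lists of cell type markers, 0 passed limma's test in any of the 6 comparisons between genotypes. Striatal markers were also detected (6 of 8 passed the filter, with sums from 265 to 1980 RPKM per library), as were choroid plexus markers (8 of 8, with sums from 70.3 to 1800 RPKM). On the first principal component, with 52.4% of the variance, 1 control female (replicate 3) lay at -130.8, far from all other mice. Both P301S+ TREM2+/+ females lay apart on the second, with 14.6%, at -45.0 and -41.3. Control replicate 3 also held 7620 RPKM of Rn45s, the ribosomal RNA precursor, against 1950 to 4730 RPKM in the other libraries. Results are given with and without these libraries where leaving them out changed a call or a direction, and the part of the ribosomal RNA in them was not tested.

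In the GRCm38 annotation Csf1r lies on chromosome 18 (61100598 to 61132149, plus strand), Csf1 on chromosome 3 (107741048 to 107760469, minus strand) and Il34 on chromosome 8 (110741829 to 110805924, minus strand). The end of Csf1r overlaps the end of Hmgxb3, a gene on the opposite strand, by 873 bases, and the end of Mtss1l, also on the opposite strand, lies 428 bases from that of Il34. No source used here says whether counting took account of strand, and reads near these ends may therefore not belong to Csf1r and Il34 alone. Levels are compared between libraries for 1 gene and not between genes, because reads from 3′ ends do not scale with gene length.

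No member passed limma's test between any pair of genotypes. The 3 members gave 18 tests over 6 comparisons, with 0 passed at an adjusted p of 0.05, and 0 passed in limma-voom on recovered reads. Across the 12015 genes the background was as low. The share called was 0.00832% (1 gene, Trem2 itself) for P301S+ TREM2-/- against P301S+ TREM2+/+ mice and 0.0% (0 genes) in each of the other 5 comparisons. An unadjusted p under 0.05 was reached by 9.9% of the genes in P301S+ TREM2-/- against P301S+ TREM2+/+ mice, 2.7% in P301S+ TREM2+/- against P301S+ TREM2+/+ mice and 3.42% in P301S+ TREM2-/- against P301S+ TREM2+/- mice. Against controls it was reached by 9.71% in P301S+ TREM2-/- mice, 9.6% in P301S+ TREM2+/- mice and 13.8% in P301S+ TREM2+/+ mice, and limma-voom called at most 1 gene in any comparison. For no member did the 4 libraries of 1 genotype lie wholly outside those of another. In the same 6 comparisons, in that order, 7.62%, 2.85%, 5.37%, 3.79%, 4.39% and 4.83% of the tested genes did. The comparisons share groups, so they are not independent of each other.

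**Figure D1:**
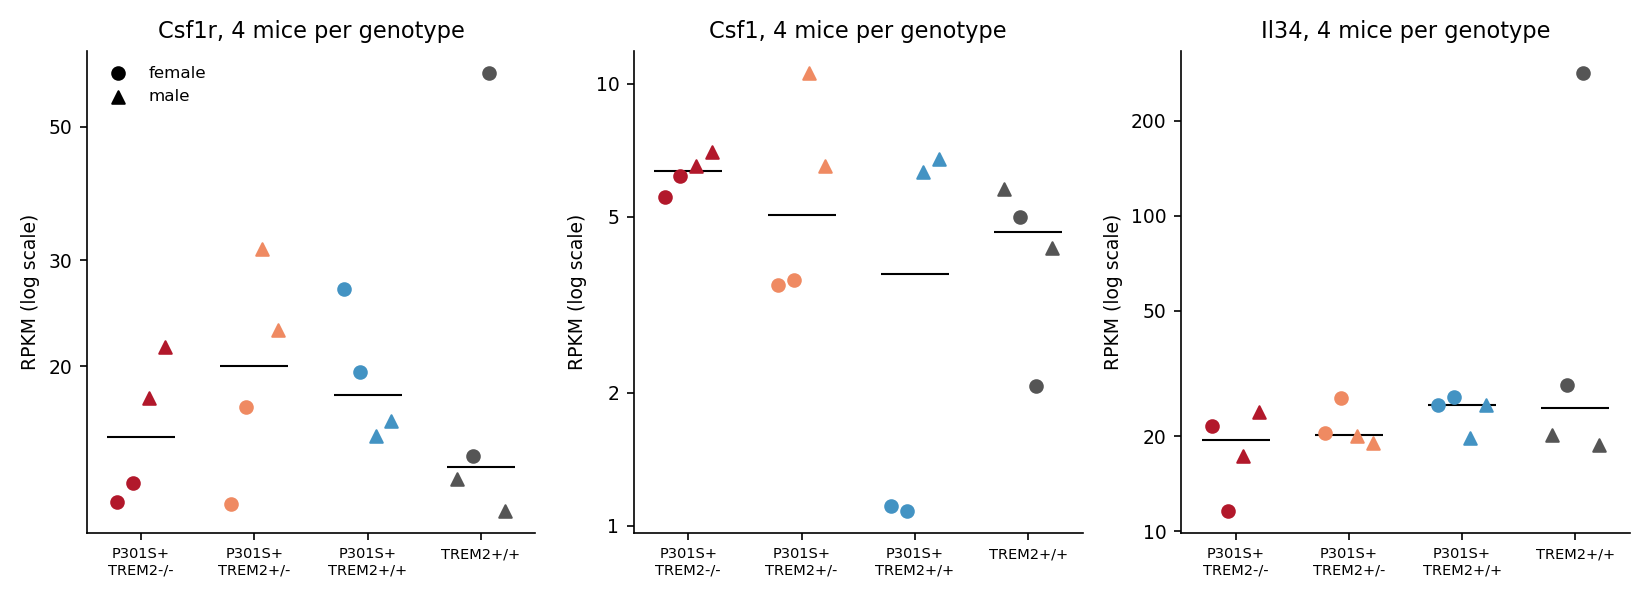
RPKM (log axis) of Csf1r, Csf1 and Il34 in each of the 16 mice by genotype, with circles for females, triangles for males and a line at the median of the 4 mice. Control replicate 3 sits at 61.5 RPKM for Csf1r and 284 RPKM for Il34, above every other library, and the P301S+ TREM2+/+ females sit at 1.11 and 1.08 RPKM for Csf1, below every other library.

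Csf1r, the receptor gene, had overlapping levels in all genotypes, and its mean in controls depended on 1 library. In P301S+ TREM2-/- mice it was at 11.9 and 12.8 RPKM in females and 17.7 and 21.5 RPKM in males. P301S+ TREM2+/- females had 11.8 and 17.1 RPKM, and the males of this genotype 31.3 and 23.0 RPKM. In P301S+ TREM2+/+ mice the females had 26.9 and 19.6 RPKM and the males 15.3 and 16.2 RPKM. All genotypes overlapped, and the males were above the females in P301S+ TREM2-/- and P301S+ TREM2+/- mice but below them in P301S+ TREM2+/+ mice. Control females had 14.2 and 61.5 RPKM and control males 13 and 11.5 RPKM, so that 3 of the 4 controls lay together at the low end and replicate 3 lay alone at the top.

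Genotype means of Csf1r were 16 ± 4.46 RPKM in P301S+ TREM2-/- mice, 20.8 ± 8.35 in P301S+ TREM2+/- mice, 19.5 ± 5.25 in P301S+ TREM2+/+ mice, against 25.0 ± 24.3 in controls (SD, n = 4 per genotype). Without replicate 3 the controls averaged 12.9 ± 1.34 RPKM (SD, n = 3), which moved them from the highest to the lowest of the genotypes. No neighbours in either order differed beyond their spread. The log2 difference of P301S+ TREM2-/- from P301S+ TREM2+/+ mice was -0.28 (SE 0.44, limma adjusted p = 0.863), with a 95% interval from -1.22 to 0.67. That of P301S+ TREM2+/- from P301S+ TREM2+/+ mice was 0.04 (SE 0.44, limma adjusted p = 1.0), with an interval from -0.91 to 0.98. A p that misses the threshold does not show that the receptor was equal between these genotypes.

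Against controls, Csf1r differed by -0.01 on the log2 scale in P301S+ TREM2+/+ mice (SE 0.44, limma adjusted p = 0.995). Without control replicate 3 the difference was 0.57 (SE 0.27, adjusted p = 0.242). P301S+ TREM2+/- mice differed from controls by 0.03 (SE 0.44, limma adjusted p = 0.978), and by 0.61 without that library (SE 0.27, adjusted p = 0.552). In P301S+ TREM2-/- mice the difference from controls was -0.29 (SE 0.44, limma adjusted p = 0.717), and 0.29 without that library (SE 0.27, adjusted p = 0.999). The estimate thus changed by more than its error, and in 2 of these 3 comparisons its direction, with 1 control mouse.

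**Figure D2:**
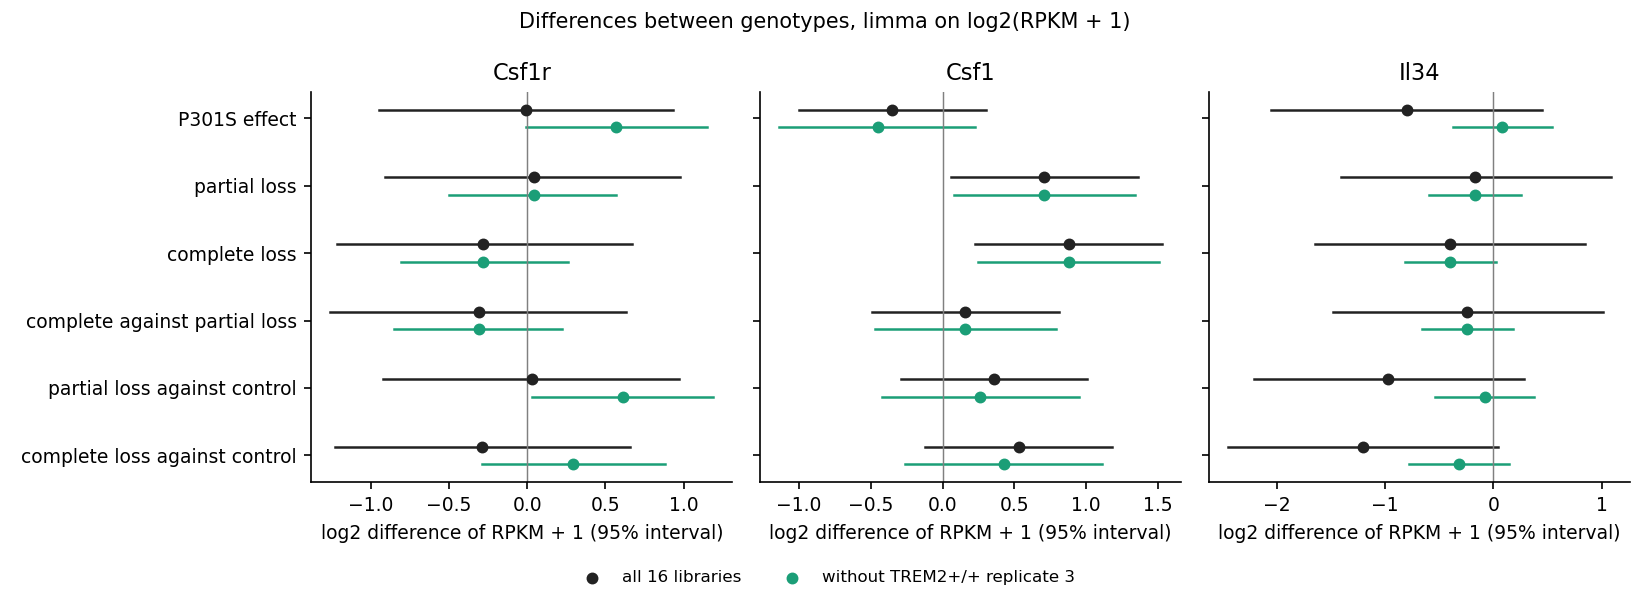
Log2 differences of RPKM + 1 with 95% intervals from limma for the 6 comparisons, over all 16 libraries (black) and without control replicate 3 (green). P301S effect is P301S+ TREM2+/+ against controls, partial and complete loss are P301S+ TREM2+/- and P301S+ TREM2-/- against P301S+ TREM2+/+. Without that library Csf1r moves to 0.57 in the P301S effect, and Il34 to 0.08, while Csf1 moves little.

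Across libraries Csf1r was set against the other transcripts of microglia, and the markers of other cell types were not set against it in this way. Following Csf1r was not particular to microglial genes. Of all tested genes the astrocyte marker Gfap followed it most closely (Spearman's rho 0.94 over 16 libraries), beside 0.91 for the microglial Cx3cr1. The difference of log2 Csf1r from the mean log2 level of 20 microglial markers is read only for its change between libraries. Its size depends on the gene lengths behind RPKM. Csf1r stood above this mean by 0.21 to 0.31 in P301S+ TREM2-/- mice and 0.21 to 0.32 in P301S+ TREM2+/- mice. In P301S+ TREM2+/+ mice it stood above it by 0.04 to 0.63. In controls it stood above it by 0.12 to 0.37 in replicates 1, 2 and 4, and by 2.12 in replicate 3. In P301S+ TREM2-/- and P301S+ TREM2+/- mice this difference varied little, although Csf1r itself ranged from 11.8 to 31.3 RPKM. It averaged 0.26 ± 0.04 in P301S+ TREM2-/- mice and 0.28 ± 0.05 in P301S+ TREM2+/- mice, against 0.32 ± 0.25 in P301S+ TREM2+/+ mice, with 0.71 ± 0.94 in controls (SD, n = 4 per genotype). None of the 6 pairs of genotypes differed by two-sided exact permutation tests (p from 0.51 to 0.71, all 0.71 after Benjamini-Hochberg adjustment; the smallest p that 4 against 4 mice allow is 0.029).

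The 20 markers summed to 430 to 905 RPKM in P301S+ TREM2-/- mice, 385 to 1610 RPKM in P301S+ TREM2+/- mice, 604 to 896 RPKM in P301S+ TREM2+/+ mice and 413 to 1300 RPKM in controls. None of the 20 was at 0 in any library, and 0 of 20 passed limma's test in any of the 6 comparisons. In bulk tissue, fewer microglia and less RNA per microglial cell cannot be told apart. Whether the number of microglia sets the level of Csf1r was not tested. In control replicate 3 the microglial genes did not move together. The chemokine receptor Cx3cr1 was at 132 RPKM there, against 20.3 to 53.6 RPKM elsewhere, and the complement gene C1qa at 820 RPKM, against 57.9 to 400 RPKM. The purine receptor P2ry12 was at 3.27 RPKM there, against 12 to 27.7 RPKM elsewhere, and Tyrobp at 14.5 RPKM, against 22.1 to 118 RPKM. These 4 genes were singled out after their values were seen.

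**Figure D3:**
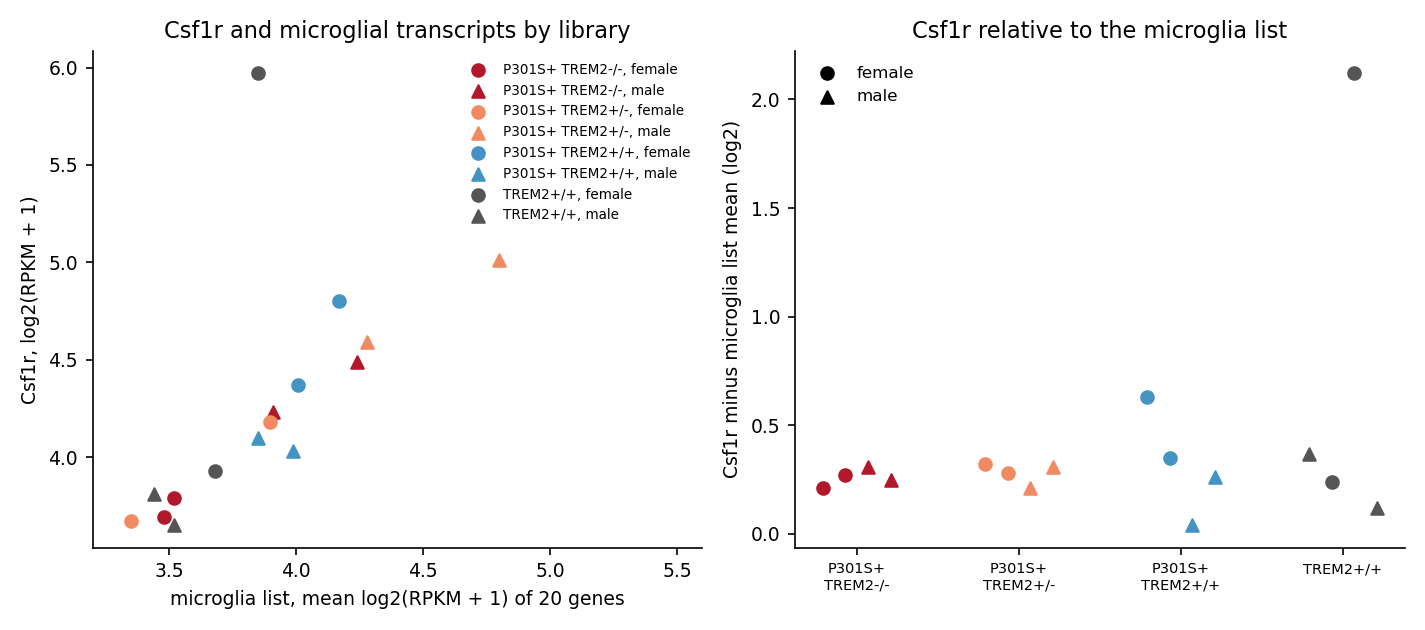
Left, Csf1r against the mean of 20 microglial markers in each library, both as log2(RPKM + 1). Right, the difference between them by genotype, with circles for females and triangles for males. The libraries lie close to 1 line except control replicate 3, whose difference of 2.12 is far above the 0.04 to 0.63 of the other libraries.

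Csf1, the ligand made mainly by glia, was close to even among P301S+ TREM2-/- mice and low in both P301S+ TREM2+/+ females. In P301S+ TREM2-/- mice it was at 5.54 and 6.20 RPKM in females and 6.5 and 7 RPKM in males. P301S+ TREM2+/- females had 3.50 and 3.59 RPKM, and the males 10.6 and 6.5 RPKM. In P301S+ TREM2+/+ mice the females had 1.11 and 1.08 RPKM and the males 6.32 and 6.75 RPKM. Within P301S+ TREM2+/+ mice the sexes were far apart, whereas all 4 P301S+ TREM2-/- mice lay close together and overlapped the range of the P301S+ TREM2+/+ males. Controls had 5 and 2.07 RPKM in females and 5.77 and 4.26 RPKM in males, and the lowest of these was again replicate 3. The low values of the P301S+ TREM2+/+ females came from 34 and 35 reads. Their 95% Poisson intervals, 0.766 to 1.55 and 0.753 to 1.5 RPKM, cover counting error only and lie below the value of every other library. The interval of control replicate 3, 1.53 to 2.75 RPKM from 48 reads, overlaps the first of these intervals.

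Means of Csf1 were 6.31 ± 0.61 RPKM in P301S+ TREM2-/- mice, 6.05 ± 3.35 in P301S+ TREM2+/- mice, 3.81 ± 3.15 in P301S+ TREM2+/+ mice, against 4.28 ± 1.59 in controls (SD, n = 4 per genotype). No neighbours in the order of these means differed beyond their spread. Relative to P301S+ TREM2+/+ mice, Csf1 was higher by 0.88 on the log2 scale in P301S+ TREM2-/- mice (SE 0.30), with an unadjusted p of 0.0117 and a limma adjusted p of 0.426. The corresponding difference of P301S+ TREM2+/- mice was 0.71 (SE 0.30), with an unadjusted p of 0.0337 and a limma adjusted p of 1.0. An unadjusted p under 0.05 was reached by 9.9% of all tested genes in the first comparison and by 2.7% in the second. These comparisons share the P301S+ TREM2+/+ mice, and both differences shrank without the females of that genotype, to 0.23 (limma adjusted p = 0.999) and 0.07 (adjusted p = 1.0). Relative to controls, Csf1 differed by -0.35 in P301S+ TREM2+/+ mice (SE 0.30, limma adjusted p = 0.594), and by 0.29 without those females.

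Both females had less Csf1 than both males in 3 of the 4 genotypes, the exception being the controls, where the male with 4.26 RPKM lay below the female with 5 RPKM. Over all genotypes the 8 females averaged 3.51 RPKM and the 8 males 6.71 RPKM. The log2 difference of females from males was -0.88 (SE 0.21), with an unadjusted p of 0.001 and a limma adjusted p of 0.306, and -0.83 without control replicate 3 (SE 0.22, adjusted p = 0.216). Both values include the P301S+ TREM2+/+ females, the lowest libraries at 1.11 and 1.08 RPKM, and the difference without them is not given here. The comparison of the sexes called 0.0416% of the tested genes (5 genes), and 14.1% reached an unadjusted p under 0.05. Csf1 was not among the 5. Csf1r differed by 0.06 between females and males (SE 0.31, limma adjusted p = 0.93) and Il34 by 0.57 (SE 0.41, adjusted p = 0.489). This comparison was added after the values were seen.

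**Figure D4:**
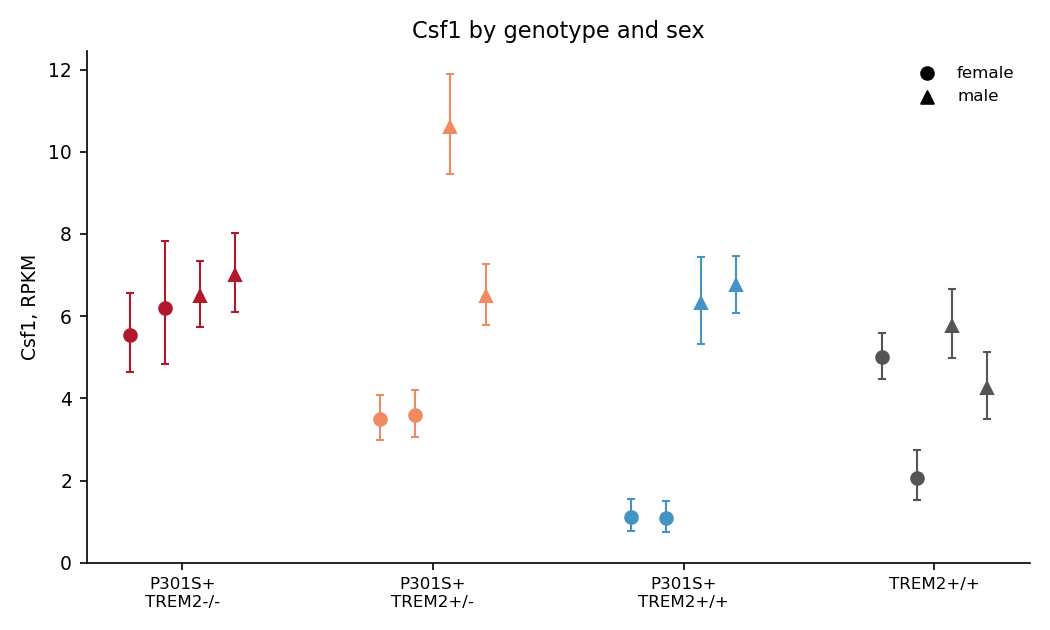
Csf1 in RPKM for each mouse by genotype, with circles for females and triangles for males. Bars are 95% Poisson intervals of the reads and cover counting error only. The 2 P301S+ TREM2+/+ females lie at 1.11 and 1.08 RPKM, and the 4 P301S+ TREM2-/- mice lie between 5.54 and 7 RPKM.

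Whether genotype differences themselves differed between the sexes was tested as an interaction, with 2 mice per genotype and sex. Where a share of all genes called is given by sex, it is for all libraries or without control replicate 3. Calls by sex under other settings have no such share beside them and cannot be set against the background. For Csf1, the difference of P301S+ TREM2-/- from P301S+ TREM2+/+ mice was 1.71 in females and 0.04 in males, an interaction of 1.67 (SE 0.42, limma adjusted p = 0.425). The share of genes called in this interaction was 0.0%, or 0 of 12015, with 7.24% at an unadjusted p under 0.05. Without control replicate 3 the same 1.67 had an SE of 0.29 and a limma adjusted p of 0.00835, in a fit that called 4.71% of all genes. Leaving out the other control female, replicate 2, gave an adjusted p of 0.00869. Neither control female is in the genotypes compared. They enter through the shared spread, to which a single remaining control female adds nothing, so the call depended on mice outside the comparison.

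Within females alone, the difference of 1.71 (SE 0.30) for Csf1 passed with a limma adjusted p of 0.0298, where 1.35% of all genes were called and 17.0% reached an unadjusted p under 0.05. These contrasts within a sex were added after the values were seen. The mean was 5.87 RPKM in the P301S+ TREM2-/- females and 1.09 RPKM in the P301S+ TREM2+/+ females (n = 2 each). Leaving out 1 library at a time kept the size between 1.64 and 1.78, and the call was lost for 10 of the 16 libraries, with adjusted p from 0.0507 to 0.279. It was kept without either control female, at an adjusted p of 0.000215 without replicate 3, where 20.1% of genes were called. Both of the P301S+ TREM2+/+ females that carry this difference stood apart on the second principal component, and the part of that in the difference was not tested.

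For Csf1 in P301S+ TREM2+/+ mice against controls, the difference was -1.04 in females (SE 0.30, limma adjusted p = 0.0594) and 0.34 in males. In the females 5.94% of the genes were called, and 27.7% reached an unadjusted p under 0.05. The female difference passed without control replicate 3, at -1.52 (SE 0.25, limma adjusted p = 0.00375, with 14.1% of genes called), and was -0.55 without control replicate 2 (adjusted p = 0.089). It also passed with a pseudocount of 0.1, at -1.48 (limma adjusted p = 0.0428), and with TMM scaling, at -1.10 (adjusted p = 0.0457). The shares of all genes called under these settings are not given here. The interaction was -1.37 (SE 0.42, limma adjusted p = 0.344). For it 0.00832% of the genes were called, and 13.5% reached an unadjusted p under 0.05. The value was -1.85 without control replicate 3 (SE 0.33, limma adjusted p = 0.0195, with 2.41% of genes called), and without control replicate 2 it was -0.89 (adjusted p = 0.0471). For P301S+ TREM2+/- against P301S+ TREM2+/+ mice the difference of Csf1 was 1.12 in females (SE 0.30, limma adjusted p = 0.345) and 0.31 in males, an interaction of 0.81 (SE 0.42, adjusted p = 0.775). In the females 0.0% of the genes were called, and 9.26% reached an unadjusted p under 0.05. The female difference passed, at the same size, without control replicate 3 (SE 0.21, limma adjusted p = 0.00794, with 8.45% of genes called), as it did without control replicate 2 (adjusted p = 0.00812), and the interaction had an adjusted p of 0.158 without replicate 3.

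For both losses of Trem2, the interaction of Csf1r with sex had the opposite sign to that of Csf1. Relative to P301S+ TREM2+/+ mice, P301S+ TREM2+/- females stood at -0.66 and P301S+ TREM2+/- males at 0.73 on the log2 scale, an interaction of -1.39 (SE 0.69, limma adjusted p = 0.764, with 0.0% of genes called and 6.48% at an unadjusted p under 0.05). P301S+ TREM2-/- females stood at -0.84 and males at 0.29, an interaction of -1.13 (SE 0.69, limma adjusted p = 0.813). Without control replicate 3 these became -1.39 with an adjusted p of 0.032 (3.19% of genes called; 0.0319 without control replicate 2) and -1.13 with an adjusted p of 0.0517. Within females, the difference of -0.84 in P301S+ TREM2-/- mice had a limma adjusted p of 0.41 over all libraries, and it passed without control replicate 3 (SE 0.21, adjusted p = 0.0159, in the fit that called 20.1% of genes) and without control replicate 2 (adjusted p = 0.0156). The difference of -0.66 in P301S+ TREM2+/- females had an adjusted p of 0.714, and of 0.0782 without replicate 3. The microglial marker mean had the same order. On the log2 scale it was 3.35 and 3.90 in P301S+ TREM2+/- females and 4.80 and 4.28 in P301S+ TREM2+/- males, and 4.17 and 4.01 in P301S+ TREM2+/+ females and 3.99 and 3.85 in P301S+ TREM2+/+ males. The part of the microglial markers in the difference between the sexes was not tested.

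In P301S+ TREM2+/+ mice against controls, Csf1r differed by -0.36 in females and 0.34 in males, an interaction of -0.70 (SE 0.69, limma adjusted p = 0.633) with the same sign as that of Csf1. It was 0.32 without control replicate 3 (adjusted p = 0.688). Without control replicate 2, which leaves replicate 3 as the only control female, it was -1.72, with -1.38 in females. The direction thus depended on which control female was kept.

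Il34, the ligand made mainly by neurons, was the steadiest member outside control replicate 3. In P301S+ TREM2-/- mice it was at 21.5 and 11.6 RPKM in females and 17.3 and 23.9 RPKM in males. P301S+ TREM2+/- females had 20.5 and 26.4 RPKM, and the males 20 and 19.1 RPKM. In P301S+ TREM2+/+ mice the females had 25.1 and 26.6 RPKM and the males 19.8 and 25.2 RPKM. The tau genotypes overlapped, and the lowest value, P301S+ TREM2-/- replicate 2, came from 55 reads in the shallowest library. Controls had 29.1 and 284 RPKM in females and 20.2 and 18.8 RPKM in males. Replicate 3 thus held 12.5 times the mean of the other controls, at 2767 reads, while the other controls lay within the range of the tau mice or, for replicate 2, just above it.

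Leaving out control replicate 3, the coefficient of variation over the 15 remaining mice was 20.6% for Il34, 33.5% for Csf1r and 45.2% for Csf1. Over all 16 it was 173%, 60.8% and 48.1% in the same order. Il34 averaged 18.6 ± 5.39 RPKM in P301S+ TREM2-/- mice, 21.5 ± 3.32 in P301S+ TREM2+/- mice, 24.2 ± 3.0 in P301S+ TREM2+/+ mice, against 88.1 ± 131 in controls (SD, n = 4 per genotype), or 22.7 ± 5.6 in controls without replicate 3 (n = 3). No neighbours in this order differed beyond their spread.

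Relative to P301S+ TREM2+/+ mice, Il34 differed by -0.40 on the log2 scale in P301S+ TREM2-/- mice (SE 0.58, limma adjusted p = 0.851) and by -0.17 in P301S+ TREM2+/- mice (SE 0.58, adjusted p = 1.0). Without control replicate 3, which is in neither genotype but enters the shared spread, the first had an SE of 0.20 and an adjusted p of 0.228. Relative to controls, Il34 differed by -1.20 in P301S+ TREM2-/- mice (SE 0.58, limma adjusted p = 0.45), by -0.97 in P301S+ TREM2+/- mice (SE 0.58, adjusted p = 0.502) and by -0.80 in P301S+ TREM2+/+ mice (SE 0.58, adjusted p = 0.53). Without that library they were -0.32 in P301S+ TREM2-/- mice, -0.08 in P301S+ TREM2+/- mice and 0.08 in P301S+ TREM2+/+ mice, each with an SE of 0.21. The differences from controls thus rested on 1 control mouse. By sex, Il34 in P301S+ TREM2+/+ mice differed from controls by -1.79 in females (SE 0.73, limma adjusted p = 0.143) and 0.19 in males, an interaction of -1.98 (SE 1.03, adjusted p = 0.402). When control replicate 3 was left out, the female difference was -0.17 and the interaction -0.35 (limma adjusted p = 0.705). With replicate 3 as the only control female they were -3.41 and -3.60.

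Reads of the neighbouring genes did not show the same excess in control replicate 3. Hmgxb3, which overlaps the end of Csf1r, was at 5.62 RPKM there and at 5.46 to 7.84 RPKM elsewhere. Mtss1l, next to the end of Il34, was at 31.8 RPKM there, against 14.7 to 30.4 RPKM elsewhere. These neighbours were looked up after the member values were seen.

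Beyond the members, 25 of 34 genes around CSF1R signalling could be tested, and in each of the 6 comparisons 0 rose and 0 fell in limma's test. Among genes that act downstream of the receptor, 12 of 14 were tested. The adapter Tyrobp averaged 42.1 ± 22.1 RPKM in P301S+ TREM2-/- mice, 73.7 ± 45.7 in P301S+ TREM2+/- mice, 83.5 ± 27.4 in P301S+ TREM2+/+ mice, against 25.8 ± 7.73 in controls (SD, n = 4 per genotype). Its log2 difference was -1.05 (SE 0.41, limma adjusted p = 0.439) in P301S+ TREM2-/- against P301S+ TREM2+/+ mice and 1.65 (SE 0.41, adjusted p = 0.265) in P301S+ TREM2+/+ mice against controls, the lowest adjusted p among these genes. Inpp5d, a phosphatase that dampens phosphoinositide signalling in blood and microglial cells, differed by -0.20 and 0.47 in the same comparisons (adjusted p 0.786 and 0.365). The median difference of the 12 genes was 0.03 in P301S+ TREM2-/- against P301S+ TREM2+/+ mice and 0.09 in P301S+ TREM2+/+ mice against controls, beside -0.02 and 0.06 over all tested genes.

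Of the kinases and adapters shared by most cell types, Grb2, Sos1, Pik3ca, Akt1 and Cbl differed by between -0.08 and 0.23 on the log2 scale in P301S+ TREM2-/- against P301S+ TREM2+/+ mice. The kinase Syk, which binds phosphorylated TYROBP, and Plcg2, a phospholipase of the same pathway, lay below the filter at no more than 0.845 and 0.724 RPKM in any library.

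Transcription factors of microglia were not called either (0 of 6 tested, 7 listed). Irf8 averaged 4.38 ± 1.46 RPKM in P301S+ TREM2-/- mice, 5.95 ± 3.34 in P301S+ TREM2+/- mice, 5.81 ± 1.68 in P301S+ TREM2+/+ mice, against 2.84 ± 0.84 in controls (SD, n = 4 per genotype), a log2 difference of 0.82 in P301S+ TREM2+/+ mice against controls (SE 0.28, limma adjusted p = 0.269). Spi1, which drives Csf1r transcription in macrophages, averaged between 1.67 and 1.89 RPKM in all 4 genotypes. Its difference was -0.09 in P301S+ TREM2-/- against P301S+ TREM2+/+ mice (SE 0.31). Mef2c is also strongly expressed by cortical neurons, so that its 84.6 to 167 RPKM cannot be ascribed to microglia.

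Ptprz1, a phosphatase receptor of glial cells that also binds IL-34, averaged 20.6 ± 5.32 RPKM in P301S+ TREM2-/- mice, 23.9 ± 4.19 in P301S+ TREM2+/- mice, 24.7 ± 3.61 in P301S+ TREM2+/+ mice, against 24.3 ± 9.45 in controls (SD, n = 4 per genotype). Its highest value, 37.8 RPKM, was in control replicate 3. Sdc1, a further binding partner of IL-34, was at or below 0.838 RPKM and was not tested.

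Among related receptor kinases, Kit, the receptor for stem cell factor, averaged 6.29 ± 2.82 RPKM in P301S+ TREM2-/- mice, 3.77 ± 1.36 in P301S+ TREM2+/- mice, 3.10 ± 2.51 in P301S+ TREM2+/+ mice, against 5.15 ± 1.04 in controls (SD, n = 4 per genotype). Its difference was 1.0 in P301S+ TREM2-/- against P301S+ TREM2+/+ mice (SE 0.36, limma adjusted p = 0.426) and -0.81 in P301S+ TREM2+/+ mice against controls (SE 0.36, adjusted p = 0.35). Kitl, its ligand, differed by -0.01 and -0.06 (SE 0.14 each). The platelet-derived growth factor receptor Pdgfra, a marker of oligodendrocyte precursors, differed by -0.02 in both comparisons, and Pdgfrb, which ends 15536 bases before Csf1r and marks pericytes, by 0.17 and 0.36 (SE 0.25 each). The other colony stimulating factors, Csf2 and Csf3, were listed at 0 in all 16 libraries. Of the receptors, Csf2ra averaged between 1.89 and 2.65 RPKM in the 4 genotypes and passed none of the tests, while Csf2rb and Csf3r lay below the filter.

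**Figure D5:**
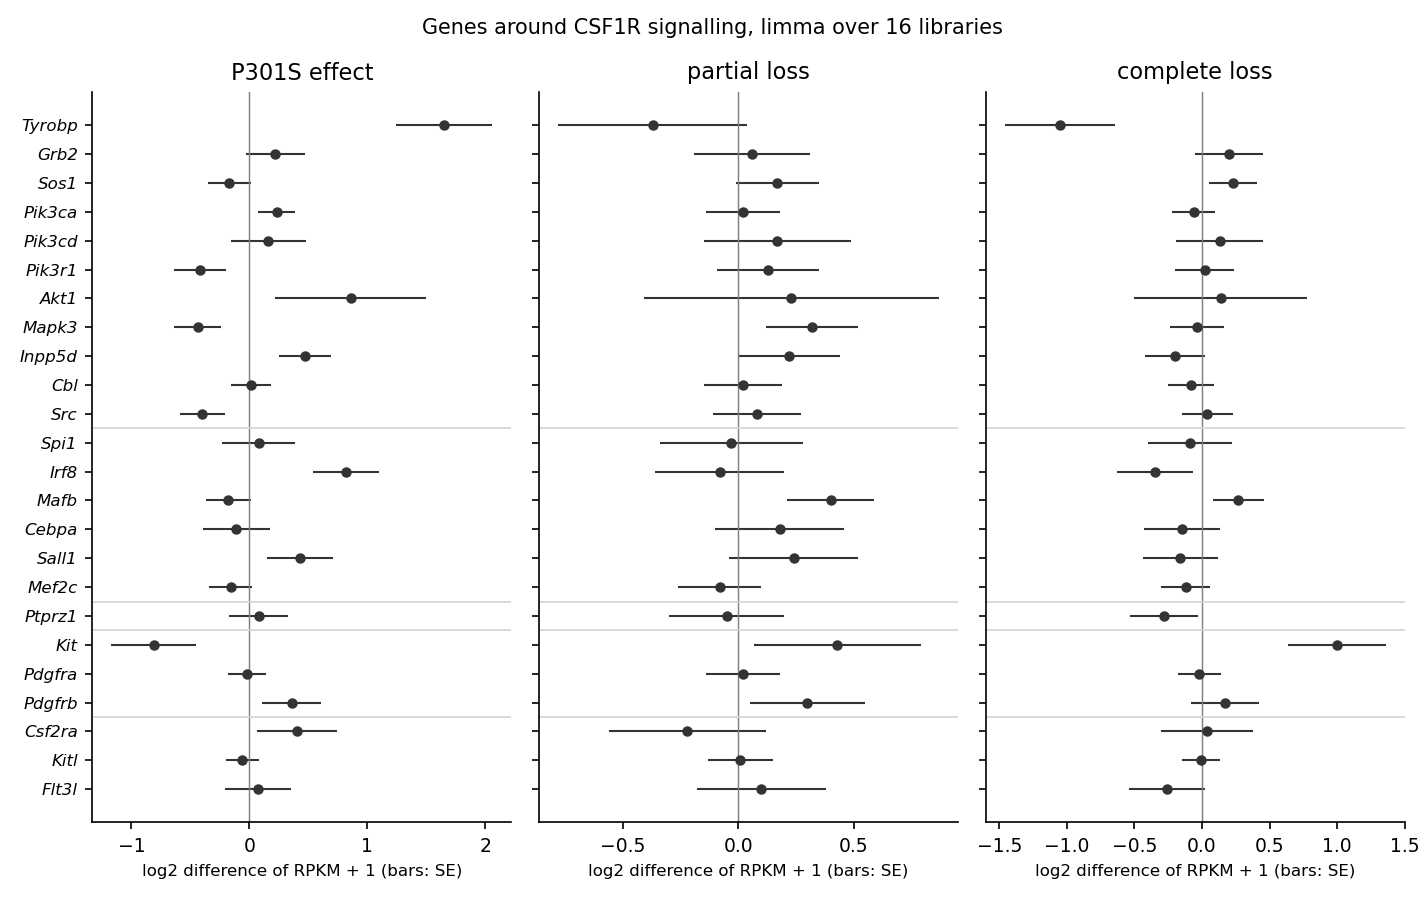
Log2 differences of RPKM + 1 (points, with bars for the SE) of genes around CSF1R signalling in 3 comparisons, P301S+ TREM2+/+ against controls (left), P301S+ TREM2+/- against P301S+ TREM2+/+ (middle) and P301S+ TREM2-/- against P301S+ TREM2+/+ (right). Grey lines part the lists. Tyrobp lies at 1.65 on the left and -1.05 on the right, Kit at -0.81 and 1.0, and no gene shown passed the test.

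The genes whose levels followed each member most closely over the 16 libraries differed between the members. For Csf1r they were Gfap, the intermediate filament of reactive astrocytes (Spearman's rho 0.94), the secreted chaperone gene Clu (0.92), the peroxidase gene Prdx6 (0.92), Cx3cr1 (0.91) and the Fc receptor gene Fcgr3 (0.91). For Csf1 they were Trp53bp2 (0.94), the tetraspanin gene Cd9 (0.93), Cmtm3 (0.92), Tmcc3 (0.91) and the class I histocompatibility gene H2-D1 (0.90), a member of a family whose near-identical copies can share reads. For Il34 they were Fbxw8, Grina and Atp6v0e2 (0.92 each), D17Wsu92e (0.91) and Atg2a (0.90). Without control replicate 3 the 15 values of rho were between 0.88 and 0.94. These are the 5 highest of 12015 genes for each member, the libraries share genotype and sex, and the values are a description.

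The members did not follow each other as closely. Over the 16 libraries rho was 0.11 between Csf1 and Csf1r, 0.33 between Il34 and Csf1r and -0.48 between Il34 and Csf1, and without control replicate 3 it was 0.33, 0.19 and -0.39 in the same order. Of the genes most like Csf1, Cd9, Cmtm3 and Tmcc3 had their 3 lowest libraries in the same 3 mice as Csf1 itself, control replicate 3 and both P301S+ TREM2+/+ females. Cd9 was at 7.33 and 7.72 RPKM in these females and at 2.56 RPKM in that control, against 13 to 40.8 RPKM in the other 13 libraries. Trp53bp2 and H2-D1 had 2 of these 3 mice among their 3 lowest libraries. All 5 genes were picked because they followed Csf1, so shared low libraries follow in part from that choice. The share of all tested genes with the same 3 lowest libraries is not given here.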

How the data were processed

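The labels' protocols describe 3′ libraries (Lexogen QuantSeq) of cortical RNA from 16 mice, read on an Illumina instrument. The submitters' processing notes list the tools STAR, HTSeq, edgeR, limma, and the build mm10, with no versions or roles. The values deposited by the authors are RPKM; the unit was read from the values, since the file headers give only a library name. Every value of the 18911 genes above 0 was a whole multiple of 1 read for that gene (100.0% of genes, tolerance 0.001 reads), which gave reads per gene and depths from 2.55 to 14.47 M per library (M, 1000000 reads). The implied gene length was a whole number for 97.2% of the 5707 genes with 1 read somewhere (tolerance 0.01 bases). The 1 line of each file that lacks a gene name was dropped, and 2 symbols occur on several lines.

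Mice were grouped by the genotype that their descriptions state, and the labels also give their sex. limma 3.58.1 in R 4.3.3 (trend on) was run on log2(RPKM + 1), keeping 12015 genes that averaged 1 RPKM or more, with genotype and sex over all 16 libraries (11 residual degrees of freedom), and with genotype by sex for the interactions (8). Adjusted p-values are Benjamini-Hochberg values over all genes tested. Fold changes on this scale understate those of low genes. Exact permutation tests over mice were used for Csf1r relative to the markers. The fit was also run on simulated reads with known fold changes. These had the same spread setting for all genes, no sex effect and no library that stood apart, so they do not show its power in these data. Alternatives were a pseudocount of 0.1, no filter, no sex term, only the genotypes compared, TMM scaling, limma-voom on recovered reads, array weights, and leaving out each library or the 3 that stood apart. Nothing in the labels says that mice were paired or prepared in batches. Reads are not independent molecules, so Poisson intervals cover counting error only.

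The members, the 5 pathway lists and the 13 marker lists were chosen with earlier results of these data known. Named genes are the members, all pathway list genes, marker genes with the lowest p, the 5 genes most like each member and Trem2; exceptions are stated where they occur, and some genes of these lists are not reported here.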

Additional observations from a re-analysis of the deposited data

Results flagged for a closer look

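In controls, replicate 3 lay apart from the other 3 mice for both genes with a high value. Csf1r was highest there at 61.5 RPKM, and Il34 at 284 RPKM, and the gap to the next control exceeded Dixon's 95% limit for 4 samples in both. Chance flags about 1 in 20 such groups, and 12 groups were examined. Csf1 in that mouse, at 2.07 RPKM, was the lowest control but did not exceed the limit.

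In 3 comparisons both females of a genotype lay on one side of the females they were compared with, and both males on the other side of theirs, with values given as females minus males on the log2 scale. For Csf1r the sex difference was -1.39 in P301S+ TREM2+/- against P301S+ TREM2+/+ mice (limma adjusted p = 0.764) and -1.13 in P301S+ TREM2-/- against P301S+ TREM2+/+ mice (adjusted p = 0.813). For Csf1 it was -1.37 in P301S+ TREM2+/+ mice against controls (adjusted p = 0.344). The interaction did not pass in any of them over all 16 libraries. The fitted differences of females and males also had opposite signs for Csf1r and Il34 in P301S+ TREM2+/+ mice against controls, with overlapping libraries in at least 1 sex.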

How the results depend on the processing

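None of the 18 member tests between genotypes passed, nor did any of the 450 repeats under 25 other settings (lowest adjusted p 0.0595, for Csf1 in complete loss under array weights); 29 of these repeats changed direction. Here complete and partial loss are P301S+ TREM2-/- and P301S+ TREM2+/- against P301S+ TREM2+/+ mice, and the P301S effect is P301S+ TREM2+/+ mice against controls. All values are log2 differences unless they count genes. Where no value shows the cause of a change, the cause was not tested.

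The Csf1r P301S effect was 0.00 with a pseudocount of 0.1, 0.57 with array weights and 0.11 without the 3 libraries that stood apart. Csf1r in partial loss against controls was -0.04 with TMM scaling and -0.01 in limma-voom, and in partial loss -0.03 with array weights. Complete loss of Csf1r against controls gave 0.24 with array weights and 0.34 without the 3 libraries, and complete loss 0.24 without the 3 and 0.03 without both P301S+ TREM2+/+ females. Csf1r in females against males was -0.27 with array weights, -0.51 without the 3 libraries and -0.09 without both females. The Il34 P301S effect was 0.00 with array weights and 0.04 without the 3 libraries. That of Csf1 was 0.18 without the 3 libraries and 0.29 without both females.

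The number of genes called in complete loss was 1 and became 0 with no filter, in limma-voom, without the 3 libraries and without both females, 7 with only the genotypes compared and 690 with array weights. In complete against partial loss it was 0 and became 1 with only the genotypes compared, 5 with array weights and 39 without the 3 libraries. Partial loss against controls went to 1 in limma-voom, 131 with array weights and 5 without the 3 libraries, complete loss against controls to 4 with array weights and 1 without the 3, and the P301S effect to 197 with array weights.

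Leaving out 1 library at a time gave these ranges. In the P301S effect they were -0.25 to 0.57 for Csf1r, -1.11 to 0.08 for Il34 and -0.59 to 0.08 for Csf1r relative to the microglial markers. In partial loss Csf1r ranged from -0.21 to 0.3, and relative to the markers from -0.14 to 0.06; in complete loss Csf1r relative to the markers ranged from -0.16 to 0.04. Against controls Csf1r ranged from -0.53 to 0.29 in complete loss and -0.22 to 0.61 in partial loss, and relative to the markers from -0.65 to 0.01 and from -0.63 to 0.03. Il34 in complete against partial loss ranged from -0.48 to 0.08, and Csf1r in females against males from -0.23 to 0.19. The sex difference in the P301S effect ranged from -1.85 to -0.89 for Csf1, -1.72 to 0.32 for Csf1r and -3.6 to -0.35 for Il34. In partial loss it ranged from -1.64 to -1.13 for Csf1r and -0.14 to 0.21 for Il34, and in complete loss from 1.6 to 1.74 for Csf1. Within females, complete loss of Csf1 ranged from 1.64 to 1.78, the P301S effect on Csf1r from -1.38 to 0.66 and partial loss of Il34 from -0.32 to 0.03. Within males, Csf1 ranged from -0.01 to 0.09 in complete and -0.01 to 0.62 in partial loss, and Il34 from -0.36 to 0.09 in complete loss. Genes called ranged from 0 to 13 in complete loss, 0 to 5 in the P301S effect, 0 to 2 in complete against partial loss, 0 to 3 and 0 to 1 in partial and complete loss against controls, and 5 to 9 between the sexes. TMM scaling moved the median of all genes by under 0.1 in each comparison. No paired analysis was possible because the labels number no replicates across genotypes.

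The fewest reads behind a member's value were 34 and 35, for Csf1 in both P301S+ TREM2+/+ females, and 48, for Csf1 in control replicate 3. The contrasts within a sex rest on 2 mice per genotype.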
